A study of Homo sapiens with 5 samples.

Results

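The miR-193 and miR-365 genes form 2 pairs of hairpins in the human genome, MIR193B with MIR365A on chromosome 16 and MIR193A with MIR365B on chromosome 17. They were followed in small RNA libraries of MCF10A, an immortalized human mammary epithelial cell line, in adherent and in suspended culture. The members were chosen by name: both arms of miR-193a and miR-193b, and every human row named miR-365a or miR-365b. This gave 7 of the 2565 rows for human miRNAs. The names miR-3650 to miR-3659 start with the same digits (11 rows) but are other miRNAs and were left out. Because the mature 3p sequences of miR-365a and miR-365b are identical, the authors' count tables hold them as 1 joint row, written here as miR-365a/b-3p.

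The attached group (3 libraries) came from MCF10A on uncoated tissue culture plates, with 0 h on the time label. The detached group (2 libraries) came from cells kept for 24 h on poly(2-hydroxyethyl methacrylate), a non-adhesive polymer laid on the plates as a 2% solution. The design text speaks of 24 h on either kind of plate, so the age of the attached cultures is unresolved. The labels describe no genetic change in either group, and both were grown with horse serum, epidermal growth factor, insulin, cholera toxin and hydrocortisone. MCF10A is 1 cell line, and the labels do not say that replicates were separate cultures, so the p-values reflect how these libraries varied, and that variation may be technical.

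A miRNA hairpin is cut into a duplex whose 5p and 3p arms come from its 2 sides. Usually 1 arm, the guide, is loaded into Argonaute and accumulates, while the other, the passenger, is degraded. The guide finds mRNAs mainly through its seed, bases 2 to 8. miR-193a-3p and miR-193b-3p have been described as repressors of cyclin D1, MCL1 and the protease uPA, and miR-193b has been described as a suppressor of breast cancer cell invasion. The miR-193b and miR-365 cluster has been studied in brown fat, and miR-365 in cyclin D1 repression and in interleukin-6 signalling.

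All 7 rows matched RefSeq mature sequences (GRCh38.p14, each on the plus strand), which are shown because the sequences decide which rows can be told apart. The seed is in capitals.
hsa-miR-193b-3p: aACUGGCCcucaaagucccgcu
hsa-miR-193a-3p: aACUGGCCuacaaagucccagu
hsa-miR-365a-3p and hsa-miR-365b-3p: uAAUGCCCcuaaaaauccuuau
hsa-miR-193b-5p: cGGGGUUUugagggcgagauga
hsa-miR-193a-5p: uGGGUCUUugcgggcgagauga
hsa-miR-365a-5p: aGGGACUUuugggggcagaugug
hsa-miR-365b-5p: aGGGACUUucaggggcagcugu

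The 3p arms of miR-193a and miR-193b have the same seed and are identical at 18 of 22 positions. Counted from 1 at the 5′ end, with the miR-193b base first, they differ by C9U, U10A, G20A and C21G, all outside the seed. The 5p arms of miR-193a and miR-193b also match at 18 of 22 positions, but 2 of their differences, G5U and U6C, lie in the seed, so the 5p seeds are not shared. The others are C1U and A11C. The 5p arms of miR-365a and miR-365b share a seed and match at 19 of the 22 positions compared, with the differences U10C, G11A and A19C. These 5p differences are what places a 5p read on chromosome 16 or 17, whereas a miR-365 3p read cannot be placed. Among the 2264 human rows with a RefSeq sequence, no row outside these 7 shared a seed with any of them.

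The 4 hairpins are shown to place both arms, which are in capitals.
MIR193B: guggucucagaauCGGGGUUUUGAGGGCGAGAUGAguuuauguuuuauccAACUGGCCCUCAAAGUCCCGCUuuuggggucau
MIR365A: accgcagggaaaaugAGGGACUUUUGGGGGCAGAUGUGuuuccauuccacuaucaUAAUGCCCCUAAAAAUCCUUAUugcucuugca
MIR193A: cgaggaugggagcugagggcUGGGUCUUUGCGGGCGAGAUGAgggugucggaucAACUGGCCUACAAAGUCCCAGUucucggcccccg
MIR365B: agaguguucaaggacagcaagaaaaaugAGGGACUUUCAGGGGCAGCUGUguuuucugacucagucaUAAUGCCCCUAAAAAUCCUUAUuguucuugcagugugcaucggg

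On hg38, MIR193B lies at chr16:14303967-14304049 and MIR365A at chr16:14309285-14309371, with 5235 bases between them. Both are in an intron of the long noncoding RNA MIR193BHG (14301389 to 14331067). MIR193A lies at chr17:31559996-31560083, in no gene of GENCODE 29 other than its own, and MIR365B follows after 15327 bases at chr17:31575411-31575521, in an exon of the long noncoding RNA AC003101.1 (31571142 to 31575659). All of these are on the plus strand. Of 16 further human miRNA rows from hairpins within 1 Mb of these 4, 0 exceeded 10 CPM (counts per 1000000 human miRNA counts) in any library, and the highest reached 2.66 CPM.

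Attached replicates 1, 2 and 3 had 12153778, 8805009 and 10321861 human miRNA counts, and detached replicates 1 and 2 had 15793173 and 10533740. Attached replicate 2 stood apart, with Spearman correlations of 0.811 to 0.859 with the other libraries against 0.924 to 0.959 among those 4, so fold changes and ratio differences are given with and without it. The 6 epithelial marker miRNAs summed to 41720 CPM in that library and to 86790 to 121000 CPM in the other 4. There 4 of them (miR-205-5p, miR-200c-3p, miR-200b-3p and miR-31-5p) were at their lowest, miR-141-3p was at its highest (21960 CPM against 12880 to 18780), and miR-203a-3p (6.93 CPM) lay between the other attached libraries. Markers of other cells were scarce. The 5 blood markers ranged in sum from 5.68 to 18.1 CPM among attached libraries and from 21.0 to 21.6 CPM among detached ones, and the 4 fibroblast markers from 3.78 to 11.7 CPM and from 17.5 to 57.4 CPM. The detached fibroblast sums came mostly from miR-143-3p (39.5 and 9.21 CPM) and miR-145-5p (16.9 and 7.69 CPM). In attached replicates 1 to 3 miR-143-3p stood at 3.13, 10.6 and 2.42 CPM, so its groups overlapped. miR-145-5p stood there at 0.905, 0.681 and 0.3875 CPM, without overlap, as in 18.1% of tested rows with detached higher. Of the other fibroblast markers, the joint miR-199a/b-3p row stayed at 1.01 CPM or less and miR-214-3p at 0.194 CPM or less. The part of other cells in the member values was not tested. The 3 muscle markers summed to 11.7 CPM or less, with miR-133a-3p at 0 counts in every library. Nearly all of that highest sum was miR-1-3p in detached replicate 1 (11.6 CPM, against 0.0949 CPM in detached replicate 2). miR-122-5p of liver reached at most 0.775 CPM, and the 2 neural markers summed to at most 10.1 CPM.

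miR-193b-3p supplied most of the reads of the 2 clusters, and its levels in attached and detached cells overlapped. The joint miR-365a/b-3p row was higher, and miR-365a-5p lower, in both detached libraries than in all 3 attached ones, but neither difference passed the test. Such separation in CPM was common, with detached higher in 18.1% and lower in 8.75% of the 697 tested human rows. In such bulk samples, fewer cells with a miRNA and less of it per cell cannot be told apart. Both arms of miR-193a ranged more widely among attached libraries than between the group means. Of all human miRNA counts the 7 rows together held 1.20%, 0.699% and 0.912% in attached replicates 1 to 3, in that order, and 0.974% and 1.20% in detached replicates 1 and 2.

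**Figure D1:**
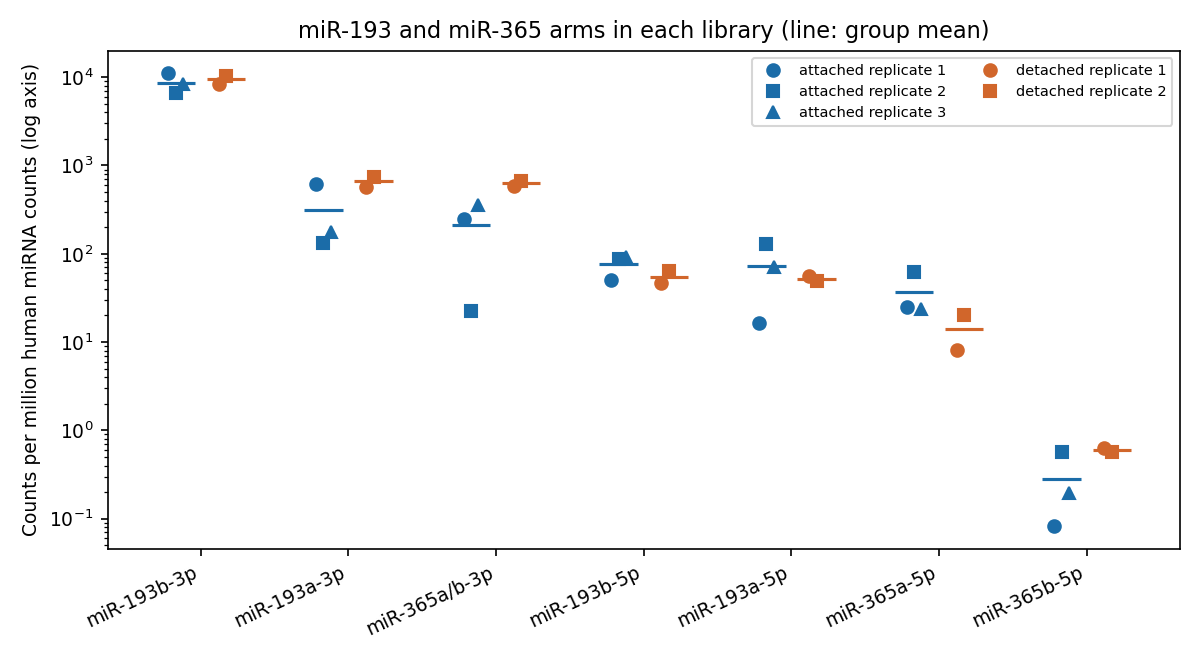
Level of each arm in each library, in CPM on a log axis, with group means as lines. miR-193b-3p lies between 6558 and 11040 CPM, the 2 detached points of miR-365a/b-3p lie above the 3 attached ones, and those of miR-365a-5p lie below.

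Guide arms are described first. In attached replicates 1, 2 and 3, hsa-miR-193b-3p stood at 11040, 6558 and 8398 CPM, and in detached replicates 1 and 2 at 8469 and 10400 CPM. Values of the other rows follow in the same order of libraries. On these totals attached replicate 1 was the highest and attached replicate 2 the lowest library, with both detached libraries between them. With TMM factors, edgeR's correction for the composition of each library, attached replicate 3 was the lowest (7366 CPM), and attached replicate 2 (8762 CPM) lay above both detached libraries (8517 and 8335 CPM). It ranked between 15 and 22 among human miRNAs in every library. Attached libraries averaged 8665 ± 2253 CPM (SD, n = 3), detached ones 9434 ± 1365 CPM (SD, n = 2). The edgeR log2 fold change, detached over attached, was -0.14 (SE 0.51, edgeR adjusted p 0.957), or -0.18 (SE 0.46) without attached replicate 2, and its sign depended on the scaling (0.12 with library totals alone) and on attached replicate 1 (0.052 without it).

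hsa-miR-193a-3p, which shares the seed of miR-193b-3p, stood at 621, 131 and 176 CPM when cells were attached and at 576 and 741 CPM when they were detached. Attached replicate 1 thus lay within the detached range, and attached replicates 2 and 3 lay well below it, although with TMM factors attached replicate 1 (657 CPM) exceeded both detached libraries (580 and 594 CPM). Attached libraries averaged 309 ± 271 CPM (SD, n = 3), detached ones 659 ± 116 CPM (SD, n = 2), and edgeR gave a log2 fold change of 0.84 (SE 0.77, adjusted p 0.807). Leaving out attached replicate 1 raised this to 1.82 (SE 0.68, edgeR adjusted p 0.473), leaving out attached replicate 3 lowered it to 0.48, and leaving out attached replicate 2 lowered it to 0.53 (SE 0.59).

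The joint miR-365a/b-3p row stood at 246, 22.4 and 359 CPM on uncoated plates and at 589 and 673 CPM after detachment. The groups did not overlap, and the detached libraries lay close together while attached replicate 2 lay far below the other 4. Groups likewise did not overlap, with detached higher, in 18.1% of the 697 tested human rows on totals and in 14.9% with TMM factors, so this separation was common. Attached libraries averaged 209 ± 171 CPM (SD, n = 3) and detached ones 631 ± 59.4 CPM (SD, n = 2). The log2 fold change was 1.49 (SE 0.89, edgeR adjusted p 0.735), and without attached replicate 2 it was 0.97 (SE 0.48, edgeR adjusted p 0.391). The 16.1-fold range among the attached libraries came from attached replicate 2: with 0.5 CPM added it was 15.7-fold, a range reached or exceeded by 43 of the 697 rows, whose median was 2.71-fold.

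The 5p arms of miR-193a and miR-193b were scarcer than the 3p arms of the same hairpins in all libraries. The miR-365 5p arms together were scarcer than the joint 3p row, which pools both hairpins, except in attached replicate 2. The attached libraries had 50.1, 87.2 and 90.8 CPM of hsa-miR-193b-5p, the detached libraries 46.1 and 63.8 CPM. Detached replicate 2 lay above attached replicate 1, so the groups overlapped. With TMM factors the levels were 53.0, 117 and 79.6 CPM against 46.4 and 51.1 CPM, without overlap, as in 14.2% of tested rows with detached lower on that scaling. The log2 fold change was -0.77 (SE 0.66, edgeR adjusted p 0.807), and -0.45 (SE 0.50) without attached replicate 2.

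For hsa-miR-193a-5p the attached libraries had 16.4, 129 and 70.7 CPM and the detached libraries had 55.5 and 48.8 CPM. The 2 detached values lay between the attached ones, and the attached values spanned a 7.87-fold range. The log2 fold change was -0.82 (SE 0.94, edgeR adjusted p 0.857) with 5 libraries, and it turned to 0.26 (SE 0.59) without attached replicate 2, the library in which this arm was highest. Without attached replicate 1, the lowest, it was -1.32.

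hsa-miR-365a-5p, which can come only from the chromosome 16 hairpin, stood at 24.7, 62.6 and 23.6 CPM on uncoated plates and at 8.17 and 20.3 CPM after detachment. The groups did not overlap, but detached replicate 2 lay only a little under attached replicate 3. Groups did not overlap with detached lower in 8.75% of tested rows on totals and in 14.2% with TMM factors, under which these groups did not overlap either. The log2 fold change was -1.83 (SE 0.86, edgeR adjusted p 0.694), and -0.94 (SE 0.52, edgeR adjusted p 0.487) without attached replicate 2, opposite in sign to that of the joint 3p row. In the authors' deposited table miR-365a-5p had a log2 fold change of -1.59 (SE 0.754) with an adjusted p of 0.981.

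hsa-miR-365b-5p, from chromosome 17, was near the limit of detection, with 1, 5 and 2 counts in attached and 10 and 6 counts in detached libraries. It failed the low-count filter and had no test in the main fit. On totals the highest attached value, 0.568 CPM in replicate 2, lay just under the lower detached value of 0.570 CPM, and with TMM factors the groups overlapped. A count of 3 corresponds to 0.19 to 0.341 CPM in these libraries.

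Of the 7 rows, 6 passed the low-count filter, and 0 were called higher and 0 lower by edgeR at an adjusted p under 0.05, where 0% of the 697 tested rows were called in either direction. At an unadjusted p under 0.05, 0 of the 6 were higher (4.73% of tested rows) and 0 lower (2.30%). DESeq2, run without the low-count filter, called 0 of 7 members, where 0.365% of 1918 tested rows were called higher and 0% lower. At an unadjusted p under 0.05 it had 1 member lower (miR-365a-5p) and 0 higher, against 1.93% and 2.14% of tested rows. limma-voom called 0 of 6 members, where it called 0% of rows in either direction, and with library quality weights it also called 0, where 1.87% of rows were called higher and 0% lower. Without attached replicate 2, edgeR called 0 of 6 members, where 3.24% of 679 tested rows were called higher and 0.147% lower. The 6 tested members split into 2 positive and 4 negative log2 fold changes (median -0.45), beside 340 positive and 357 negative (median -0.04) over all tested rows.

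**Figure D2:**
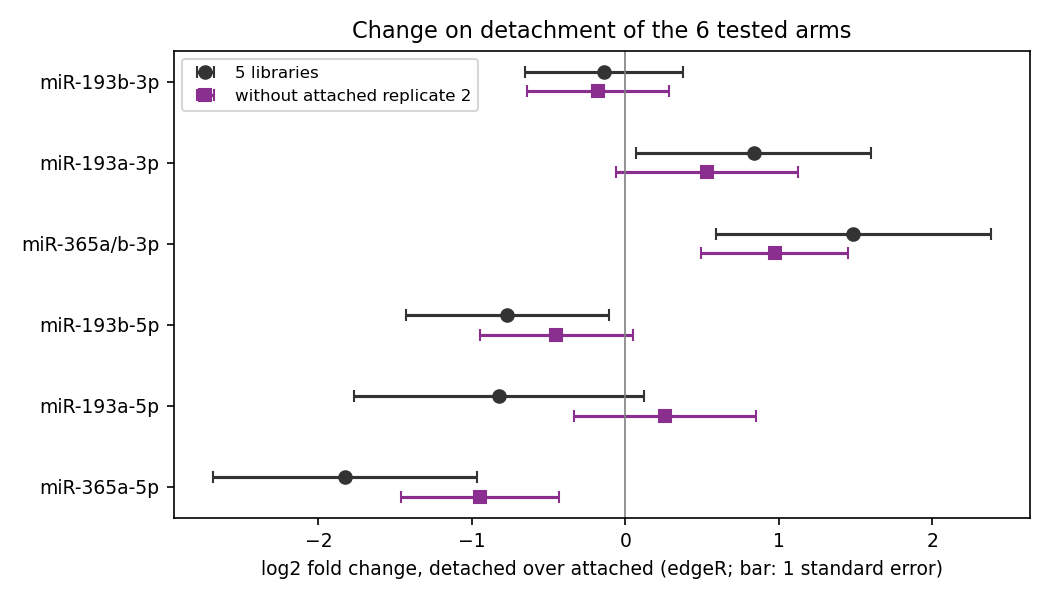
edgeR log2 fold change, detached over attached, of the 6 tested arms with 1 standard error, from all 5 libraries and without attached replicate 2. miR-365a/b-3p (1.49 and 0.97) and miR-365a-5p (-1.83 and -0.94) lie on opposite sides of 0, and miR-193a-5p crosses it.

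On library totals, attached replicate 2 held the lowest level of all 3 3p rows and the highest level of 2 of the 4 5p rows, miR-193a-5p and miR-365a-5p. With TMM factors it was the lowest for 1 of the 3 3p rows, miR-365a/b-3p, and the highest for all 4 5p rows. Relative to the mean of the other attached libraries on the log2(CPM + 0.5) scale, miR-365a/b-3p lay at -3.70, miR-193a-3p at -1.33 and miR-193b-3p at -0.55, while miR-193a-5p lay at 1.90, miR-365a-5p at 1.36 and miR-193b-5p at 0.37. Over all tested rows this library was the lowest of the 5 in 55.3% of 3p rows and 50.6% of 5p rows, and the highest in 21% and 23%, on totals. With TMM factors it was the lowest in 45.3% and 41% and the highest in 29.7% and 37.2%. The 3p sequence of miR-365 has 31.8% G and C, against 50.0% to 59.1% for the other tested arms. Across 603 tested rows with a sequence, GC content and the deviation of attached replicate 2 had a Spearman correlation of 0.202, a description over rows that share libraries. The part of base composition in the member values was not tested.

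Ratios within a library need no scaling between libraries. The 3p arm of miR-193b outnumbered its 5p arm 220, 75.2 and 92.5 times when attached, and 184 and 163 times when detached. In every library miR-193b was thus almost entirely a 3p product. The log2 ratio averaged 6.85 ± 0.82 when attached (SD, n = 3) and 7.43 ± 0.12 when detached (SD, n = 2), a difference of 0.59 (exact permutation test, two-sided, p = 0.4), or 0.28 without attached replicate 2.

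For miR-193a the 3p arm outnumbered the 5p arm 37.9, 1.01 and 2.48 times in the attached libraries and 10.4 and 15.2 times in the detached ones. In attached replicate 2 the arms had 1152 and 1135 counts. The log2 ratios were 5.24, 0.02 and 1.31 in attached and 3.38 and 3.92 in detached libraries, a difference of 1.46 (exact permutation test, two-sided, p = 0.5). It was 0.37 without attached replicate 2 and 2.98 without attached replicate 1.

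The 2 paralogous guides were compared as miR-193b-3p over miR-193a-3p. The ratio was 17.8, 50.1 and 47.8 in attached and 14.7 and 14.0 in detached libraries, so both detached libraries lay under every attached one. Single rows often separated too, with detached higher in 18.1% and lower in 8.75% of the 697 tested rows. No such share was computed for ratios, so separation of this and later ratios cannot be called unusual. miR-193a-3p made up 5.33%, 1.96% and 2.05% of the reads with their shared seed in attached, and 6.37% and 6.65% in detached libraries. The 95% exact binomial intervals of attached replicate 1 (5.21% to 5.44%) and detached replicate 1 (6.25% to 6.50%) did not meet, though they cover counting error only. The log2 ratio averaged 5.13 ± 0.84 when attached (SD, n = 3) and 3.84 ± 0.05 when detached (SD, n = 2), a difference of -1.28 (exact permutation test, two-sided, p = 0.2), or -1.02 without attached replicate 2.

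miR-365a/b-3p was set against each miR-193 guide. miR-193b-3p exceeded it 44.9, 293 and 23.4 times in attached and 14.4 and 15.5 times in detached libraries, again without overlap, and the log2 ratio of miR-365a/b-3p over miR-193b-3p differed by 2.18 (exact permutation test, two-sided, p = 0.2), or by 1.12 without attached replicate 2. Relative to miR-193a-3p it stood at 0.396, 0.171 and 2.05 in attached and 1.02 and 0.908 in detached libraries. Those detached values lay inside the attached range, and the log2 difference was 0.90 (exact permutation test, two-sided, p = 0.6), or 0.10 without attached replicate 2. The adjusted p of the 5 ratios was 0.5 or 0.6 (Benjamini-Hochberg over exact permutation tests), and with 3 against 2 libraries the smallest p the exact permutation test allows is 0.1.

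miR-365 showed a further ratio, added after its values were seen and given without a test. Its 3p row exceeded the sum of both 5p arms 9.92, 0.354 and 15.1 times in attached and 66.9 and 32.2 times in detached libraries. In attached replicate 2 the 5p arms outnumbered the 3p arm, and in both detached libraries the 3p excess was larger than in any attached one. How often other ratios separate in this way was not computed. The log2 ratio averaged 1.91 ± 2.96 when attached (SD, n = 3) and 5.53 ± 0.74 when detached (SD, n = 2), a difference of 3.62, or 1.92 without attached replicate 2. Because the 3p row pools both hairpins, it is not a ratio of a single duplex. Nearly all 5p reads came from chromosome 16: miR-365b-5p was 0.332%, 0.899% and 0.813% of them in attached and 7.19% and 2.73% in detached libraries.

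**Figure D3:**
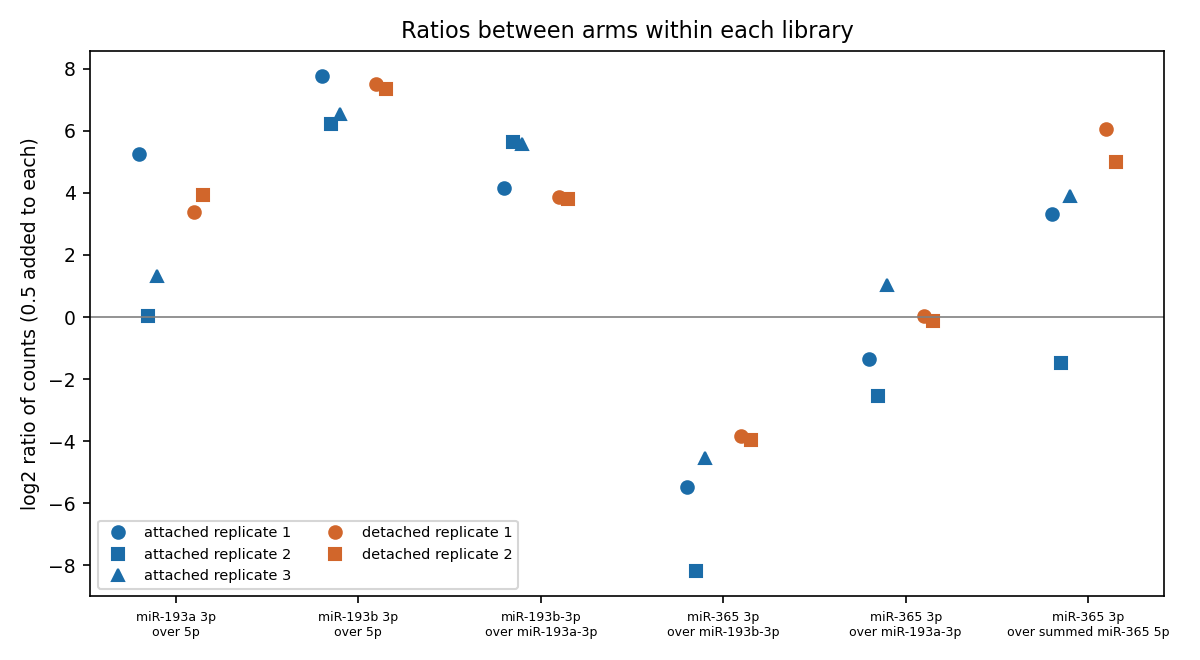
log2 ratios between arms in each library, with 0.5 counts added to each row. The 2 detached points of each ratio lie at most 1.05 apart. The 3 attached ones span 5.41 for miR-365 3p over its summed 5p arms and 5.22 for miR-193a 3p over 5p. A range of 3 points tends to exceed that of 2, and attached replicate 2 is the lowest point in both. The other attached points lie at 3.31 and 3.91 for miR-365, closer together than its detached points, and at 5.24 and 1.31 for miR-193a.

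Across 179 miRNA names with both arms tested (the joint miR-365 row was paired with miR-365a-5p), the log2 fold change of the 3p arm minus that of the 5p arm had a median of 0.02 and a median absolute size of 0.76. miR-365 had a difference of 3.31 and ranked 4 from the top, miR-193a had 1.66 (rank 23) and miR-193b 0.63 (rank 52). The arms had opposite signs in 85 of the 179 names, so the opposite signs of miR-365 and of miR-193a were common. Without attached replicate 2 the differences were 1.92 for miR-365 (rank 10 of 175), 0.27 for miR-193a (rank 64) and 0.27 for miR-193b (rank 66).

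**Figure D4:**
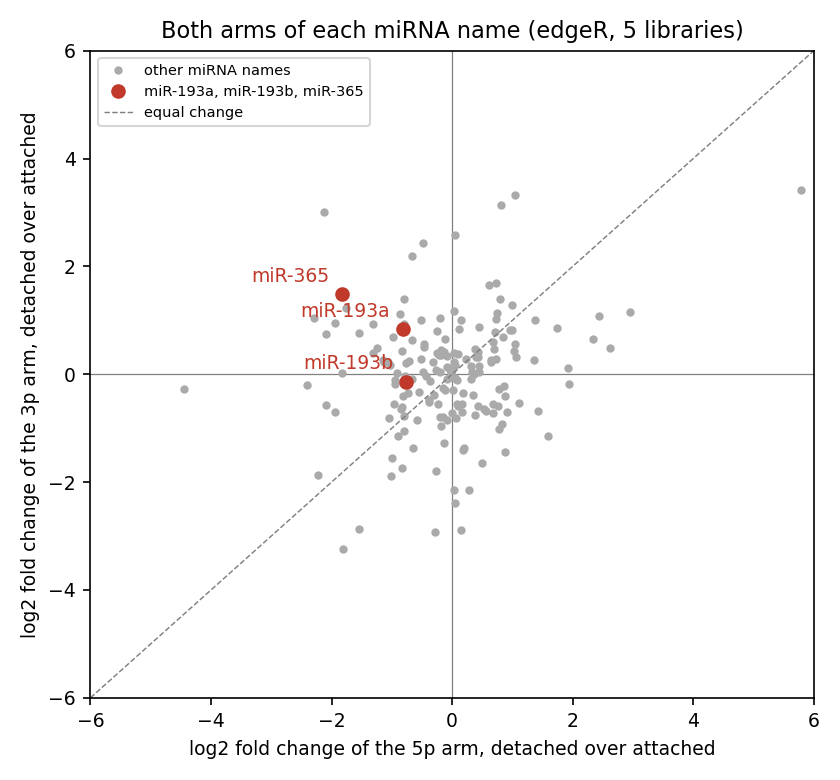
edgeR log2 fold change of the 3p arm against that of the 5p arm for 179 miRNA names, with all 5 libraries and a dashed line of equal change. miR-365 lies in the upper left, at -1.83 for 5p and 1.49 for 3p, and miR-193a and miR-193b lie nearer the centre.

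Rows with the most similar pattern were found by the root mean square difference of centred log2(CPM + 0.5) over the 5 libraries, among 351 other tested rows with a mean of at least 10 CPM. For miR-193b-3p they were miR-542-5p (0.08), miR-484 (0.12), miR-128-3p (0.12), miR-182-5p (0.15) and miR-30c-1-3p (0.16). Like miR-193b-3p, all 5 were lowest in attached replicate 2 on library totals, which the choice on these same values makes likely. For miR-365a/b-3p they were miR-31-3p (0.33), miR-15b-5p (0.36), miR-296-5p (0.40), miR-34a-3p (0.41) and miR-15a-5p (0.44). Their levels in attached replicate 2 were 6.25, 118, 11.0, 5.00 and 111 CPM in the same order, against at least 95.9, 1567, 148, 76.7 and 1486 CPM in the other libraries. The choice of these rows by pattern likewise favours such a drop, so it is no separate result.

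Cyclin D1 drives entry into the cell cycle, and 12 other miRNAs described as repressing it were all tested. Of their log2 fold changes 10 were positive and 2 negative (median 0.48). edgeR called 0 of them (0% of all tested rows), with 1 higher at an unadjusted p under 0.05 (4.73% of all tested rows). The smallest p belonged to miR-17-5p (log2 fold change 2.63, SE 0.75, edgeR adjusted p 0.381), miR-15b-5p (1.94, SE 0.94, edgeR adjusted p 0.699) and miR-15a-5p (1.75, SE 0.92, edgeR adjusted p 0.707). miR-17-5p belongs to the miR-17-92 cluster, and miR-15a and miR-15b also repress BCL2. Without attached replicate 2, 7 were positive and 5 negative. In that fit edgeR called 1, miR-17-5p (2.37, SE 0.62, edgeR adjusted p 0.0486), where 3.24% of 679 tested rows were called higher. miR-17-5p was scarce, never exceeding 3.39 CPM in any attached library or 14.0 CPM in any detached library. It has near-identical paralogs whose reads the counting may have mixed with its own. MCL1 is a survival protein of the BCL2 family. Of 7 other miRNAs described as repressing it, 6 were tested, with 3 positive and 3 negative log2 fold changes, a median of 0.07 and 0 called with or without attached replicate 2. Their smallest p belonged to miR-29a-3p (-1.28, SE 0.73, edgeR adjusted p 0.735), miR-153-3p (0.73, SE 0.86) and miR-29b-3p (0.33, SE 0.58).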

How the data were processed

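The authors deposited raw read counts per named small RNA for each of 5 libraries (RNAs of 18 to 24 nt from 50 µg of total RNA, per the labels). The submitters' processing notes name hg38 and DESeq2. The aligner, counter and handling of multiply matching reads are not given there or in other sources used here. The authors' deposited comparison table gives log2 fold changes with standard errors and p-values, per the file header. It matched 6 of the 7 members, all but the joint miR-365a/b-3p row, and its 5 columns of per-library values were not used. Its values are printed only where named. Members and lists were chosen with earlier results of these data known.

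Levels are CPM on the total of human miRNA rows (names starting hsa-). The test was edgeR's quasi-likelihood F test (edgeR 4.0.16, R 4.3.3) with TMM factors and Benjamini-Hochberg adjustment over the 697 rows that passed filterByExpr (minimum count 10, minimum total 15). TMM factors were 0.945, 0.748 and 1.14 in attached and 0.994 and 1.25 in detached libraries. Each SE equals the size of its log2 fold change over the root of F. Ratios added 0.5 counts. The fit was tested on simulated counts, and the outcome is not reported here. No 2 replicates agreed within sampling noise (chi-square over degrees of freedom of 606 to 3834). Named miRNAs were the members, the rows sharing a seed or lying within 1 Mb, the 5 nearest patterns and the 3 smallest p per list; the choice of cell markers to name was made with their values known. Alternatives used DESeq2 1.42.0, limma 3.58.1, other scalings, filters and rows, a replicate block and leaving out each library. Positions and hosts came from RefSeq and GENCODE 29.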

Additional observations from a re-analysis of the deposited data

How the results depend on the processing

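The count of members called, 0 higher and 0 lower, was the same under every alternative run that kept at least 2 libraries in each group. The fit on rows with at least 100 CPM in 2 libraries tested only 3 members, the 3p rows. The 5p arms could not be called there. The number of human miRNAs called higher moved from 0 to 7 with DESeq2 (which here also went without the low-count filter and tested 1918 rows), 13 with limma-voom and library quality weights, and 14 in edgeR without the low-count filter, which also gave 5 lower. Leaving out 1 library gave 0 to 22 higher and 0 to 1 lower, with every call from the fit without attached replicate 2. Scaling by library totals alone moved the median log2 fold change of common rows by 0.24 and turned miR-193b-3p from -0.14 to 0.12. Leaving out 1 library gave miR-193b-3p between -0.31 and 0.052 (the latter without attached replicate 1) and miR-193a-5p between -1.32 (without attached replicate 1) and 0.26 (without attached replicate 2). Library quality weights turned miR-193a-5p to 0.27. The cause was not tested. The replicate block called 0 higher and 0 lower, and gave 2.68 for miR-365a/b-3p and -2.02 for miR-365a-5p. Number 3 occurs only in the attached group, so attached replicate 3 did not bear on these differences. They rest on replicates 1 and 2 of each group, among them the outlying attached replicate 2. Deviations from the group means were correlated at -0.247 and -0.225 between same-numbered libraries. With only 2 detached libraries these deviations mirror each other, so the check cannot decide whether the numbers pair libraries. The differences of the 5 arm ratios kept their sign with 1 count in place of 0.5 and without each library in turn. Leave-one-out ranges were 0.37 to 2.98 for miR-193a 3p over 5p, 0.28 to 1.05 for miR-193b 3p over 5p, -1.77 to -1.02 for miR-193b-3p over miR-193a-3p, 1.12 to 2.94 for miR-365a/b-3p over miR-193b-3p and 0.10 to 1.89 over miR-193a-3p. Among the members, only miR-365b-5p failed the low-count filter of the main fit, and the part of depth in this was not tested.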
